A study of Mus musculus with 12 samples.

Results

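Transcripts of 9 chemokines were followed in MC38-idAdpgkG cells: Cxcl9, Cxcl10, Cxcl1, Cxcl5, Cxcl16, Ccl2, Ccl5, Ccl7 and Cx3cl1. They were chosen by gene symbol, and all 9 were found among the 27179 genes of the count table. MC38 is a C57BL/6 mouse colon carcinoma line, and this derivative carries a mutant Adpgk neoantigen, Adpgk(R304M), joined to turboGFP. The fusion is switched on by doxycycline and can be degraded by the small molecule dTAG-13. Every group, the control included, received mouse interferon-gamma at 20 ng/mL, so no group shows the chemokines without the cytokine. The control had interferon-gamma alone for 51 h. The doxycycline group also had doxycycline at 1 µg/mL for 51 h. In the dTAG-13 group, dTAG-13 at 1 µM was added for the last 3 h, after 48 h of interferon-gamma. The fourth group had doxycycline throughout and dTAG-13 for the last 3 h. Each group had 3 libraries, and per the labels these were technical repeats of 1 biological sample. All p-values below therefore measure the spread between libraries of 1 culture per treatment, and culture-to-culture variation cannot be told apart from treatment.

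Chemokines are small secreted proteins that guide leukocytes along gradients by binding G protein-coupled receptors. Cxcl9 and Cxcl10 bind Cxcr3 on activated T cells and are classical interferon-gamma targets. Cxcl1 and Cxcl5 bind Cxcr2 on neutrophils, Ccl2 and Ccl7 bind Ccr2 on monocytes, and Ccl5 attracts T cells and macrophages. Cxcl16 and Cx3cl1 are made as membrane-anchored proteins that are shed by proteases, and they bind Cxcr6 and Cx3cr1. Interferon-gamma acts through Jak kinases and Irf1, while NF-kappaB drives many inflammatory chemokines, among them Cxcl1 and Ccl2.

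The genes lie mainly in family clusters. On GRCm38.p6, Cxcl9 (Entrez 17329) occupies chr5:92321331-92328079 on the minus strand and Cxcl10 (15945) chr5:92346638-92348889, also on the minus strand. Cxcl1 (14825) lies at chr5:90891245-90893121 and Cxcl5 (20311) at chr5:90759298-90761625, both on the plus strand. Ccl2 (20296) at chr11:82035577-82037452 and Ccl7 (20306) at chr11:82045712-82047525 are plus-strand neighbours. Ccl5 (20304) lies at chr11:83525778-83530518 and Cxcl16 (66102) at chr11:70454389-70459984, both on the minus strand. Cx3cl1 (20312) lies at chr8:94772180-94782427 on the plus strand. The strand setting of the counting is not given in the sources used here, so reads of overlapping genes cannot be told apart. Cxcl10 overlaps Art3, which had at most 2 reads in any library, and Cxcl16 overlaps Zmynd15, which had at most 3. Ccl2 overlaps Gm17268 in GENCODE, and Ccl5 and Cx3cl1 overlap Gm32650 and Gm51543 in RefSeq.

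Promoters of 4 of the 9 genes were matched in the RefSeq table of GRCm38.p6, those of Cxcl9, Cxcl10, Cxcl1 and Cx3cl1. The 250 bases before the start of 3 of them are printed, chosen after the results were seen. Cxcl10 and Cxcl1 were called higher with doxycycline. Cxcl9, the neighbour of Cxcl10, stayed near 1 CPM, and at 14 to 39 reads in a library its doxycycline difference was not resolved. Capitals mark matches on either strand to the core of an interferon-stimulated response element (GAAANNGAA) or to the kappaB consensus, with overlapping kappaB matches run together. The lines give Cxcl10 at chr5:92348890-92349139 (minus strand), Cxcl9 at chr5:92328080-92328329 (minus strand) and Cxcl1 at chr5:90890995-90891244 (plus strand), each read 5′ to 3′ towards the gene.
Cxcl10: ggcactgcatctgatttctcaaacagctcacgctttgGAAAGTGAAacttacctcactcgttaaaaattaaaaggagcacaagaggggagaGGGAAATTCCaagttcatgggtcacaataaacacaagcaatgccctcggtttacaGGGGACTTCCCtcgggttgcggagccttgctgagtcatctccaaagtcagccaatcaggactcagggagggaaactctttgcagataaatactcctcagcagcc
Cxcl9: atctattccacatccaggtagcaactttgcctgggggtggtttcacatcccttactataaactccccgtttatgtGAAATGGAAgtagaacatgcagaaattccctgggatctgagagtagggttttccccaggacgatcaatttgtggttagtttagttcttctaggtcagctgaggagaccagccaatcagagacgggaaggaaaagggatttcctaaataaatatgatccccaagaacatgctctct
Cxcl1: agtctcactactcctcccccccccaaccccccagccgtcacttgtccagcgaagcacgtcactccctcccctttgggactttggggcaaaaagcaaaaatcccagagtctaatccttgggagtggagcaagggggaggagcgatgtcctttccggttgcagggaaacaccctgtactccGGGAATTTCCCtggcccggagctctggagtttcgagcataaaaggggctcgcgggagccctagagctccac
The Cxcl10 window held a response element match, GAAAGTGAA, at positions -213 to -205 from the start site, and the Cxcl9 window held GAAATGGAA at -175 to -167. That pattern occurs in 7.13% of the 32851 RefSeq promoter windows of this length. Cxcl10 also had kappaB matches at -159 to -150 and at -104 to -94, the latter formed by overlapping matches, and Cxcl1 had overlapping matches at -71 to -61. The kappaB consensus was found in 7.25% of the windows. The Cxcl9 window had no kappaB match. A gamma-activated site (TTCNNNGAA, in 7.02% of windows) was not matched in any of the 4 windows, and the Cx3cl1 window held none of the 3 patterns. These are letter matches only, and no binding was measured. Ccl2 and Ccl7, also called higher with doxycycline, had no matched promoter, and a link between these patterns and the calls was not tested.

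Libraries held between 22165538 and 32809573 counted reads. Adpgk, the transgene's parent gene, averaged 160.5 ± 2.49 CPM (CPM, the read count scaled to library size with edgeR; SD, n = 3 libraries) in the control and 1338 ± 20.1 in the doxycycline group. It stood at 181 ± 4.18 with dTAG-13 and 1369 ± 15.7 with both, so the labels for doxycycline matched the RNA; dTAG-13 acts on protein and this check says nothing of it. The 8 epithelial markers, Epcam and Cdh1 among them, were each under 1 CPM in every library, so the label of a colon carcinoma was not matched by epithelial transcripts. Of 6 fibroblast markers, Dcn, Pdgfra and Pdgfrb were detected and Col1a1, Col1a2 and Lum stayed under 1 CPM; the 6 summed to between 298.7 and 361 CPM over the libraries. The 10 leukocyte and macrophage markers summed to 1.51 to 1.90 CPM in the control, 1.87 to 1.97 with doxycycline, 2.06 to 2.83 with dTAG-13 and 2.59 to 3.19 with both. Of these 10, 8 stayed under 1 CPM in every library, and the sums came mostly from Cd68 (433 reads over all libraries) and Lyz2 (303). Ptprc had 3 reads, Adgre1 1, Itgam 7 and Csf1r 18, and Tyrobp and Cd3e had no read in any library. Of the 5 endothelial markers, 4 stayed under 1 CPM, and the 5 summed to 1.96 to 4.18 CPM. The part of such cells in the chemokine differences below was not tested. In bulk RNA, fewer cells of a type and less RNA per cell cannot be told apart.

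Per transcript length, Cxcl10 was the most abundant of the 9, at 80.4 RPKM (CPM divided by the transcript length in kilobases) averaged over the 12 libraries. Ccl2 followed at 51.9 RPKM, Ccl5 at 24.0, Cxcl1 at 7.02, Ccl7 at 4.76 and Cxcl9 at 0.330. The 2 Cxcr3 ligands of this set thus differed widely, although they are neighbours and both known interferon-gamma targets. The summed level of all 9 was 118 ± 3.53 CPM in the control, 170 ± 0.843 with doxycycline, 125 ± 1.36 with dTAG-13 and 206 ± 6.44 with both (SD, n = 3 libraries). Cxcl10 and Ccl2 made up most of each sum. Of the 9 genes, 6 had enough reads to be tested, and Cxcl16, Cx3cl1 and Cxcl5 did not.

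**Figure D1:**
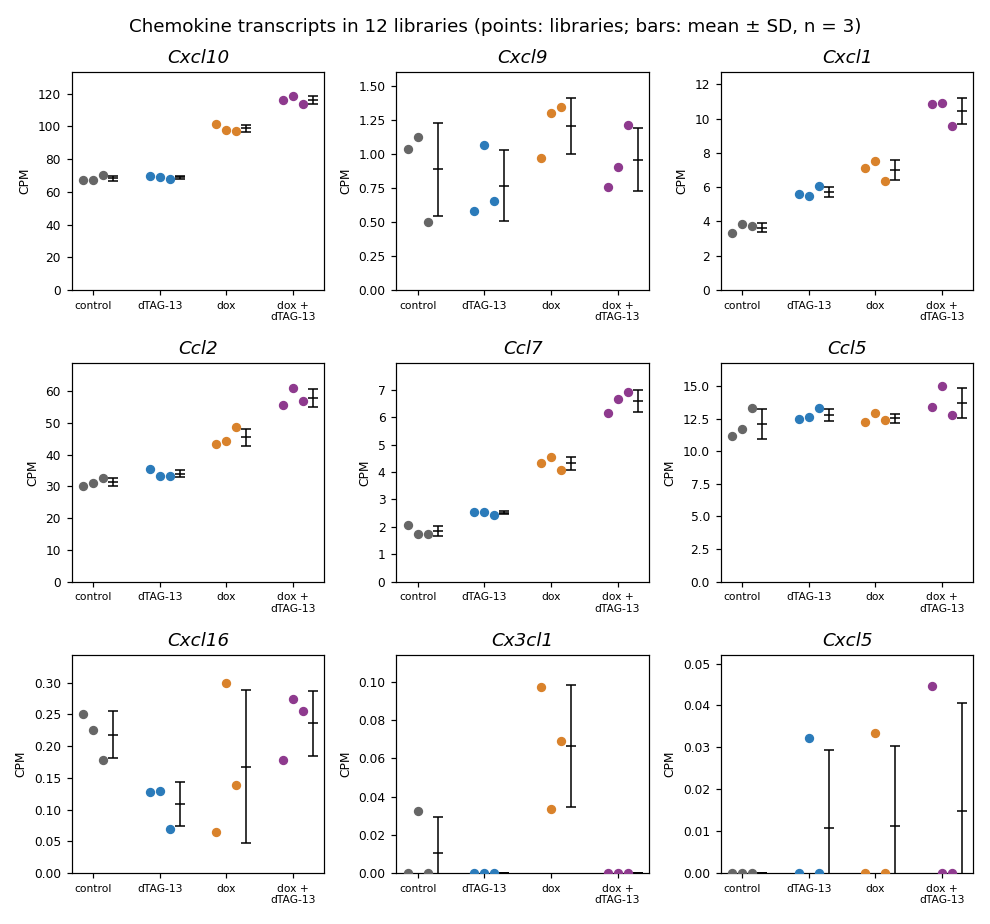
Normalised read count (CPM) of the 9 chemokine transcripts by treatment group; points are the 3 libraries of a group and the bar beside them is their mean ± SD, and each panel has its own scale from 0. Cxcl10 stands at 113.6 to 118.5 CPM with both compounds against 67.2 to 70.1 in the control, while the groups of Ccl5 and Cxcl9 overlap.

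Doxycycline went with higher levels of 4 chemokines. Against the control, 4 of the 6 tested chemokines were called higher and 0 lower by edgeR's quasi-likelihood test at an adjusted p under 0.05, where 33.5% of all 12910 tested genes were called and 14.8% were called higher and 18.7% lower. Cxcl10, the T-cell-attracting Cxcr3 ligand, measured 67.5, 67.2 and 70.1 CPM in the control and 101.4, 97.7 and 97.4 CPM with doxycycline. All 3 doxycycline libraries lay above all 3 control libraries (log2 fold change 0.54, SE 0.0329, edgeR adjusted p = 8.98e-17). Ccl2, the monocyte-attracting Ccr2 ligand, measured 30.3, 31.2 and 32.7 CPM in the control and 43.3, 44.4 and 48.7 CPM with doxycycline. Its groups did not overlap either (log2 fold change 0.53, SE 0.0491, edgeR adjusted p = 1.31e-11). The share of all genes whose groups lie apart was not counted, so such separation is not shown to be particular to the chemokines.

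The 2 less abundant genes of the 4 had the larger fold changes; that difference from Cxcl10 and Ccl2 was tested only as the ratios given further on. Ccl7, a second Ccr2 ligand next to Ccl2, went from 2.07, 1.74 and 1.74 CPM in the control to 4.34, 4.53 and 4.07 CPM with doxycycline (log2 fold change 1.22, SE 0.144, edgeR adjusted p = 7.80e-09) and reached 2.33-fold. Cxcl1, the neutrophil-attracting Cxcr2 ligand, went from 3.33, 3.83 and 3.73 CPM to 7.12, 7.50 and 6.35 CPM (log2 fold change 0.95, SE 0.113, edgeR adjusted p = 8.82e-09). Neither gene's groups overlapped, and how often this held over all genes was not counted.

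Ccl5 and Cxcl9 did not pass the test. Ccl5, a T-cell and macrophage attractant, measured 11.1, 11.7 and 13.3 CPM in the control and 12.3, 12.9 and 12.4 CPM with doxycycline, a log2 difference of 0.06 (SE 0.0792, edgeR adjusted p = 0.614). Cxcl9 had 33, 35 and 14 reads in the control libraries and 30, 39 and 39 with doxycycline. That gave 0.497 to 1.13 CPM against 0.971 to 1.35 CPM, and a log2 difference of 0.42 whose SE of 0.284 spans much of it (edgeR adjusted p = 0.270). The groups of both genes overlapped.

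The doxycycline effect was also measured between the 2 groups that both had dTAG-13. The same 4 genes were called higher there and 0 lower, against 20.4% called, 10.7% higher and 9.64% lower, among all genes tested. Cxcl10 measured 69.6, 68.8 and 68.0 CPM with dTAG-13 alone and 116.3, 118.5 and 113.6 CPM with both (log2 fold change 0.75, SE 0.0329, edgeR adjusted p = 3.61e-21). Ccl2 measured 35.4, 33.3 and 33.4 CPM against 55.8, 61.1 and 57.0 CPM (log2 fold change 0.77, SE 0.0480, edgeR adjusted p = 2.56e-16). The 3 libraries with both compounds were the highest of the series for both genes. Ccl7 rose from 2.54, 2.54 and 2.45 CPM to 6.15, 6.68 and 6.93 CPM (log2 fold change 1.40, SE 0.130, edgeR adjusted p = 3.27e-11). Cxcl1 rose from 5.62, 5.47 and 6.06 CPM to 10.8, 10.9 and 9.54 CPM (log2 fold change 0.86, SE 0.101, edgeR adjusted p = 1.01e-08). Ccl5 differed by 0.10 (edgeR adjusted p = 0.435) and Cxcl9 by 0.35 (edgeR adjusted p = 0.481), both with overlapping groups.

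In the dTAG-13 comparisons, the fold changes of all genes moved with transcript length. Between dTAG-13 and control, the median log2 fold change was 0.23 in the shortest eighth of genes (71 to 1357 nt) and -0.28 in the longest. Between both compounds and doxycycline the medians were 0.38 and -0.39, whereas between doxycycline and control they were -0.04 and 0.03. Between both compounds and dTAG-13 they were 0.09 and -0.02. Of the 6 tested chemokines, 5 lie in the shortest eighth, from Ccl5 at 532 nt to Cxcl10 at 1094 nt, and Cxcl9 at 2889 nt lies in the fourth eighth. Values with a per-library correction for transcript length and GC content are therefore given beside most of those reported for the 6 tested chemokines. For other genes only some corrected values are given. Counts and medians of the gene lists further on are without the correction.

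**Figure D2:**
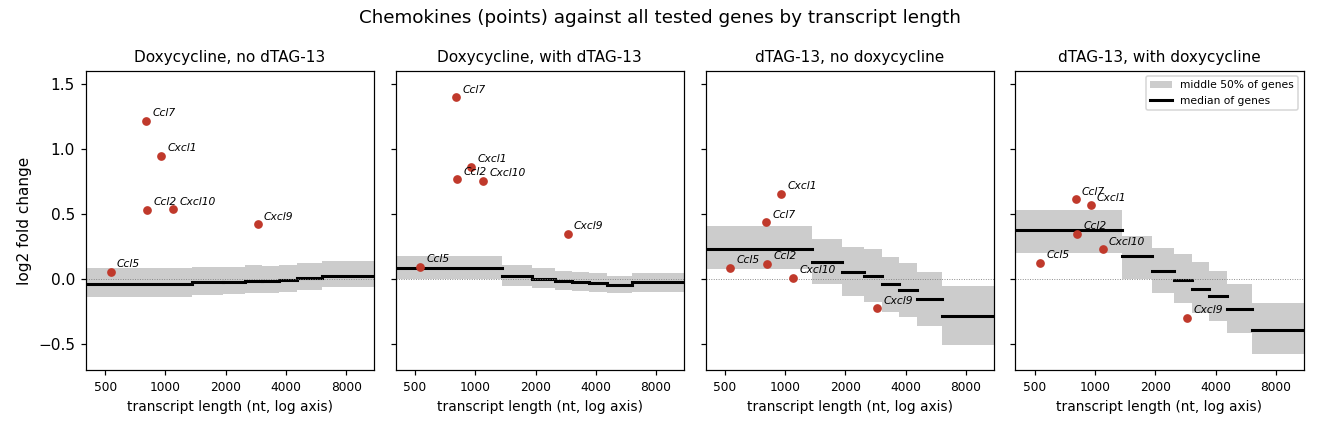
Median log2 fold change of all tested genes in 8 classes of transcript length (nt, log axis that cuts off the very shortest and longest genes), with the middle 50% of genes in grey and the 6 tested chemokines as points, for each compound with and without the other. In the dTAG-13 panels the medians fall from 0.23 to -0.28 and from 0.38 to -0.39 between the shortest and the longest genes; 5 of the 6 chemokines lie in the shortest eighth.

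Between dTAG-13 and control, 3 of the 6 tested chemokines were called higher and 0 lower, against 62.1% called, 30.0% higher and 32.1% lower, among all genes tested. Cxcl1 had the largest difference of the 6, 5.62, 5.47 and 6.06 CPM against 3.33, 3.83 and 3.73 CPM in the control (log2 fold change 0.66, SE 0.116, edgeR adjusted p = 5.03e-06). With the length and GC correction Cxcl1 stayed called, at 0.28, and it alone of the 6 was called higher there. Of all 11745 genes in that fit, 2720 were called higher and 3860 lower. Ccl7 measured 2.54, 2.54 and 2.45 CPM against 2.07, 1.74 and 1.74 CPM (log2 fold change 0.44, SE 0.157, edgeR adjusted p = 0.0155). This call was lost without control replicate 2 (0.38) or 3 (0.39), and with the correction the difference was -0.03. Ccl2 measured 35.4, 33.3 and 33.4 CPM against 30.3, 31.2 and 32.7 CPM (log2 fold change 0.12, SE 0.0507, edgeR adjusted p = 0.0413). All 3 lie in the shortest eighth of genes, whose median log2 fold change here was 0.23, with quartiles of 0.08 and 0.41. Ccl2 was below that median, and Cxcl1 and Ccl7 were above the upper quartile. The corrected value for Ccl2 was -0.34 and called lower, and the call as reported was lost with DESeq2, and also when any 1 of these libraries was left out: replicates 1 and 2 of the control, replicates 1 and 2 of doxycycline, replicate 3 of both compounds, and each dTAG-13 library.

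Cxcl10 was at the control level after dTAG-13 alone, with a log2 difference of 0.01 (SE 0.0340, edgeR adjusted p = 0.764). Ccl5 measured 12.5, 12.6 and 13.3 CPM with dTAG-13, a log2 difference of 0.09 (SE 0.0788, edgeR adjusted p = 0.334). After the correction both were called lower, Cxcl10 at -0.30 and Ccl5 at -0.22. Cxcl9 measured 0.578, 1.06 and 0.654 CPM, a log2 difference of -0.22 (SE 0.307, edgeR adjusted p = 0.546) with overlapping groups, or -0.40 with the correction.

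When dTAG-13 was added to doxycycline, 4 of the 6 were called higher and 0 lower, against 64.1% called, 30.7% higher and 33.4% lower, among all genes tested. The log2 fold changes were 0.61 for Ccl7 (edgeR adjusted p = 2.19e-05) and 0.57 for Cxcl1 (edgeR adjusted p = 2.78e-06). They were 0.35 for Ccl2 (edgeR adjusted p = 1.60e-08) and 0.23 for Cxcl10 (edgeR adjusted p = 3.51e-08), and the groups of these 4 genes did not overlap. All 4 lie in the shortest eighth of genes, whose median log2 fold change here was 0.38, with quartiles of 0.20 and 0.53. Ccl2 and Cxcl10 were below that median, and Ccl7 and Cxcl1 were above the upper quartile. The share of genes called within that eighth was not counted, so the shares above are not matched for length. How often groups lay apart over all genes was not counted in any comparison. With the length and GC correction 0 were called higher and 3 lower, where 2863 of all 11745 genes were called higher and 3374 lower. The 3 were Ccl2 at -0.20, Cxcl10 at -0.16 and Ccl5 at -0.34. Cxcl1 was then at 0.10 and Ccl7 at 0.04, neither called. Ccl5 as reported differed by 0.13 (edgeR adjusted p = 0.162) and Cxcl9 by -0.30 (edgeR adjusted p = 0.377). The direction of the dTAG-13 difference in Ccl2 and Cxcl10 thus turned with the correction, while the doxycycline differences of the 4 called genes did not. Those of Ccl7, Cxcl1, Cxcl10 and Ccl2 against control were 1.21, 0.95, 0.54 and 0.53 with it. Between both compounds and dTAG-13 they were 1.29, 0.77, 0.68 and 0.66 with it.

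**Figure D3:**
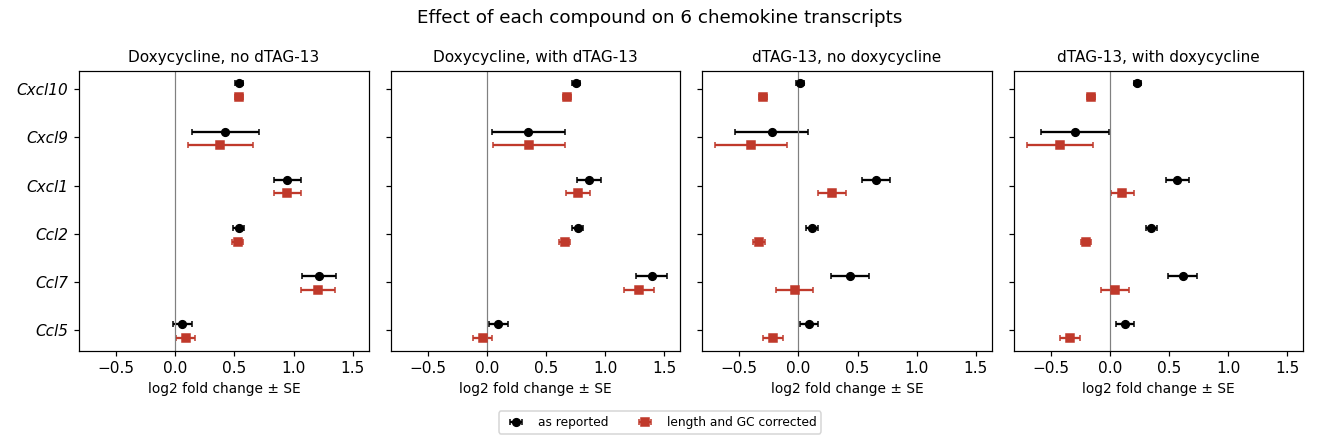
Log2 fold change ± SE of the 6 tested chemokines for each compound with and without the other, as reported (circles) and with the length and GC correction (squares). The 2 sets of values nearly coincide for doxycycline without dTAG-13, with Ccl7 at 1.22 and 1.21, and part for dTAG-13, with Ccl2 at 0.12 and -0.34.

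With both compounds against the control, 5 of the 6 were called higher and 0 lower, where 66.3% of all genes tested were called, 32.5% higher and 33.8% lower. Ccl7 reached 3.56-fold (log2 fold change 1.83, SE 0.137, edgeR adjusted p = 3.73e-15) and Cxcl1 2.86-fold (1.52, SE 0.108, edgeR adjusted p = 8.65e-16). Ccl2 was 1.85-fold and Cxcl10 1.70-fold of control, log2 fold changes of 0.89 and 0.77. The shortest eighth of genes had a median of 0.34 here, with quartiles of 0.15 and 0.51. These 4 genes were above that upper quartile, and Ccl5 at 0.19 was below the median. The fit with the length and GC correction called 2885 of all 11745 genes higher and 3966 lower. With it these 4 genes stayed called higher, at smaller log2 fold changes of 1.25 for Ccl7, 1.05 for Cxcl1, 0.32 for Ccl2 and 0.38 for Cxcl10. Ccl5 was called at 0.19 (SE 0.0798, edgeR adjusted p = 0.0384), but its libraries, 13.4, 15.0 and 12.8 CPM against 11.1, 11.7 and 13.3 CPM, overlapped. That call was lost with DESeq2 and without control replicate 1, control replicate 2 or replicate 2 of the group with both compounds, and the corrected value was -0.25 and called lower. Cxcl9 differed by 0.12 (edgeR adjusted p = 0.733).

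The direct comparison of doxycycline with dTAG-13 called 4 of the 6 higher with doxycycline and 0 lower, where 61.3% of all genes tested were called, 31.7% higher and 29.6% lower. The log2 fold changes were 0.78 for Ccl7, 0.52 for Cxcl10, 0.42 for Ccl2 and 0.29 for Cxcl1. With the length and GC correction they were 1.24, 0.84, 0.86 and 0.67, and all 6 genes were called higher, with Ccl5 at 0.30 and Cxcl9 at 0.78. Of all 11745 genes in that fit, 3375 were called higher and 2972 lower. The call as reported for Cxcl1 was lost without doxycycline replicate 2 (0.26). For Cxcl9 the value was 0.65 (SE 0.292, edgeR adjusted p = 0.0528) with overlapping groups, and it passed the test in 9 of the alternative settings. Cxcl10, Ccl2, Ccl7 and Cxcl1 had one order of means as reported: control, dTAG-13, doxycycline, then both. Each step then passed the test except the first one of Cxcl10, although the calls for the first steps of Ccl2 and Ccl7 and the middle step of Cxcl1 were lost in the settings named with them. This order did not hold with the length and GC correction: dTAG-13 was below control and both compounds below doxycycline for Ccl2 and Cxcl10, and the first and last steps of Ccl7 and the last step of Cxcl1 were not called. For Ccl5 and Cxcl9 no pair of neighbouring levels as reported passed the test.

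The interaction, the dTAG-13 effect with doxycycline minus that without it, was called positive for 2 of the 6 and negative for 0, where 22.9% of all genes tested were called, 13.2% positive and 9.64% negative. It was 0.22 for Cxcl10 (SE 0.0466, edgeR adjusted p = 0.000519) and 0.23 for Ccl2 (SE 0.0688, edgeR adjusted p = 0.0114). For Cxcl10 it was 0.14 with the length and GC correction and 0.15 with library size scaling alone, still called in both. The call for Ccl2 was lost with the length and GC correction (0.13), with library size scaling alone (0.16) and without doxycycline replicate 1 (0.19). Ccl7 (0.18, edgeR adjusted p = 0.576), Cxcl1 (-0.09, edgeR adjusted p = 0.740), Ccl5 (0.04) and Cxcl9 (-0.07) did not pass the test. The comparisons above share groups, so their values are not independent of one another.

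The remaining 3 chemokines had few reads, with Cx3cl1 and Cxcl5 near the detection limit. Cxcl16, a membrane-anchored Cxcr6 ligand, had 64 reads in all, between 2 and 9 in a library. Pooled over the 3 libraries it stood at 0.213 CPM in the control (exact 95% Poisson interval 0.130 to 0.328), 0.166 with doxycycline, 0.113 with dTAG-13 (0.0542 to 0.208) and 0.241 with both (0.145 to 0.377). These intervals overlap and cover counting error only. Cx3cl1, the membrane-anchored Cx3cr1 ligand, had 3, 1 and 2 reads in the doxycycline libraries, 1 read in the control and 0 in both dTAG-13 groups, where the exact 95% Poisson interval reaches 0.0417 CPM with dTAG-13 alone and 0.0469 CPM with both. Cxcl5, a Cxcr2 ligand like Cxcl1, had 3 reads in all 12 libraries and 0 in the control, where the interval reaches 0.0392 CPM. These 3 genes were not tested between groups.

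Ratios within a library do not depend on the scaling of that library. Ccl7 gave 5.91 ± 0.811 reads per 100 Ccl2 reads in the control, 9.53 ± 1.01 with doxycycline, 7.37 ± 0.235 with dTAG-13 and 11.4 ± 0.674 with both (SD, n = 3 libraries). The libraries of the 4 groups did not overlap in this ratio of neighbouring genes. Cxcl1 gave 5.32 ± 0.387 reads per 100 Cxcl10 reads in the control, 7.07 ± 0.580 with doxycycline, 8.31 ± 0.522 with dTAG-13 and 8.97 ± 0.494 with both. Ccl2 gave 261 ± 14.2 reads per 100 Ccl5 reads in the control, 363 ± 26.2 with doxycycline, 266 ± 16.5 with dTAG-13 and 423 ± 20.6 with both. With 3 libraries against 3, a two-sided exact permutation test cannot go below p = 0.1, and 10 of the 12 ratio comparisons reached that value (0.12 after Benjamini-Hochberg adjustment over the 12). The other two were Ccl2 per Ccl5 between dTAG-13 and control (exact permutation p = 0.8) and Cxcl1 per Cxcl10 between both compounds and dTAG-13 (exact permutation p = 0.2).

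**Figure D4:**
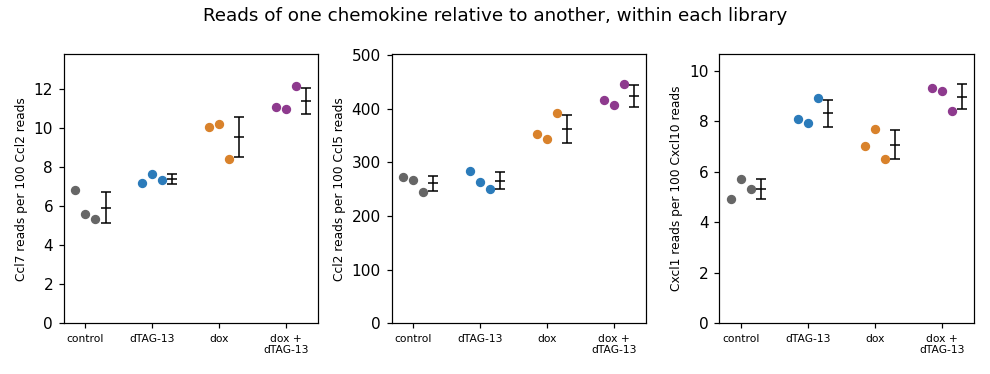
Reads of one chemokine per 100 reads of another in each library, by group; points are libraries and the bar beside them is the mean ± SD (n = 3). Ccl7 per 100 Ccl2 reads lies at 5.31 to 6.83 in the control and 10.9 to 12.2 with both compounds.

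Over the 12 libraries, log2 CPM of Cxcl10 correlated with that of Ccl2 (r = 0.976) and Ccl7 (r = 0.966), and Ccl2 with Ccl7 (r = 0.970). Cxcl1 gave r = 0.949 with Ccl7 and 0.888 with Cxcl10. Cxcl9 ranged from -0.327 with Ccl5 to 0.363 with Ccl7. These values describe libraries that share 4 treatments and are given with no test. Among 11552 genes of at least 1 CPM, the patterns most like Cxcl10 were those of Zbp1 (r = 0.993) and Csf3 (0.986), and most like Cxcl1 those of Igfbp6 (0.988) and H2-T22 (0.984). For Ccl2 they were Gsto1 (0.986) and Iigp1 (0.985), for Ccl7 Gbp6 (0.986) and Gsto1 (0.986), and for Ccl5 Sdc2 (0.950) and Gm3150 (0.916). Csf3, which encodes the neutrophil growth factor G-CSF, averaged 1.62 CPM in the control, 4.17 with doxycycline, 1.72 with dTAG-13 and 5.97 with both.

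Few other chemokine genes were expressed. Of 28 other ligands, 11 had no read in any library, 3 were tested and 1 averaged at least 1 CPM. That one was Ccl25, a Ccr9 ligand, at 7.67 ± 0.812 CPM in the control, 8.88 ± 0.994 with doxycycline, 11.4 ± 0.457 with dTAG-13 and 11.0 ± 1.00 with both. It was called higher with dTAG-13 against control (log2 fold change 0.57, edgeR adjusted p = 1.07e-06) and with both against doxycycline (0.30, edgeR adjusted p = 0.00471). With the length and GC correction these values were 0.29, still called, and -0.06, and the second call was also lost without doxycycline replicate 1. Neither doxycycline comparison called any of the 3, where 33.5% of all genes were called against control and 20.4% between both compounds and dTAG-13. Their median log2 fold changes were 0.21 for doxycycline, 0.37 for dTAG-13 and 0.30 for dTAG-13 on doxycycline, against -0.01, 0.02 and 0.0032 over all genes.

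Receptors were as scarce. Of 23, 8 had no read in any library, 3 were tested and 2 averaged at least 1 CPM. Ackr3, an atypical receptor that scavenges Cxcl12, rose with doxycycline from 4.73 ± 0.278 to 5.95 ± 0.261 CPM (log2 fold change 0.33, edgeR adjusted p = 0.0145). This call was lost without control replicate 3 or doxycycline replicate 1. Ackr3 also rose with dTAG-13, to 6.32 ± 0.0895 CPM (0.42, edgeR adjusted p = 0.000741). Cxcr5, a B-cell receptor for Cxcl13 named here after its values were seen, was called lower with dTAG-13 against control and with both against doxycycline, at 0.777 ± 0.306 CPM in the control, 0.664 ± 0.182 with doxycycline, 0.338 ± 0.155 with dTAG-13 and 0.315 ± 0.227 with both. The median of the 3 was 0.18 for doxycycline, 0.24 for dTAG-13 and -0.21 for dTAG-13 on doxycycline. No receptor of the 3 was called between both compounds and dTAG-13 (0 of 3, by edgeR at an adjusted p under 0.05), where 20.4% of all genes were called.

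Of 14 genes that carry or restrain the interferon-gamma signal, 13 were tested. Because the list mixes the 2 roles, its counts do not measure the strength of the signal. With doxycycline 8 were called higher and 1 lower, at a median log2 fold change of 0.17 against -0.01 over all genes, of which 14.8% were called higher and 18.7% lower. Between both compounds and dTAG-13 the counts were 7 and 0, with a median of 0.08 against -0.00077 over all genes, of which 10.7% were higher and 9.64% lower. Stat2, a transcription factor of interferon signalling, rose by 0.55 (edgeR adjusted p = 3.92e-16) and by 0.41 (edgeR adjusted p = 8.26e-12) in these comparisons. Socs1, the feedback inhibitor of Jak kinases, rose by 0.41 (edgeR adjusted p = 2.77e-05) and by 0.24 (edgeR adjusted p = 0.0175), the second call being lost without replicate 1 or 2 of either group compared. With dTAG-13, 5 were called higher and 6 lower against control, and 4 and 6 on doxycycline, at medians of -0.02 and -0.02. Over all genes 30.0% were called higher and 32.1% lower against control, and 30.7% and 33.4% on doxycycline, at medians of 0.02 and 0.0032. Among them Socs3, another feedback inhibitor, fell by 0.42 and Stat3 fell by 0.32 against control. On doxycycline Stat3 fell by 0.53 and the kinase Jak1 fell by 0.43. After the length and GC correction Stat3 was at -0.02 against control, no longer called, and at -0.16 on doxycycline, with Jak1 at -0.22.

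Of 19 NF-kappaB pathway genes, 15 were tested, and doxycycline called 5 higher and 3 lower (median -0.0086 against -0.01 over all genes, of which 14.8% were higher and 18.7% lower). Bcl3, a nuclear NF-kappaB cofactor, rose from 1.64 to 3.12 CPM (log2 fold change 0.93, edgeR adjusted p = 0.000104), and Nfkbie, an inhibitor of the pathway, from 6.00 to 8.54 CPM (0.50, edgeR adjusted p = 8.42e-05). Between both compounds and dTAG-13 the counts were 3 and 2 (median -0.01), where 10.7% of all genes were higher and 9.64% lower. Bcl3 was called there at 0.54 (edgeR adjusted p = 0.0465), a call lost with DESeq2, with library size scaling alone, with only the compared groups, and without doxycycline replicate 1 or 3, replicate 1 or 2 with both compounds, or any 1 of the dTAG-13 libraries. The cofactor Nfkbiz rose by 0.37 (edgeR adjusted p = 4.66e-06). With dTAG-13 2 were called higher and 5 lower against control, and 3 and 8 on doxycycline (medians -0.04 and -0.20). The shares over all genes were 30.0% higher and 32.1% lower against control, and 30.7% and 33.4% on doxycycline. Nfkbie was higher by 0.48 and Nfkb2 fell by 0.46 against control. On doxycycline Nfkbiz was higher by 0.81 and Nfkb1 fell by 0.47. With the correction Nfkb1 was at -0.27.

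All 11 genes of chemokine mRNA decay and stability were tested. With doxycycline 1 was called higher and 2 lower (median -0.08), where 14.8% of all genes were higher and 18.7% lower. Between both compounds and dTAG-13 the same numbers were called (median -0.04), where the shares were 10.7% and 9.64%. Hnrnpd, an RNA-binding protein that destabilises AU-rich transcripts, fell from 734 to 566 CPM with doxycycline (log2 fold change -0.37, edgeR adjusted p = 0.000185). Rc3h2, a Roquin family decay factor, was called at 0.13 (edgeR adjusted p = 0.0219), but not with DESeq2, with the length and GC correction (0.02) or without replicate 1 or 2 of either group compared. Between both compounds and dTAG-13, Zfp36, the decay factor tristetraprolin, rose by 0.28 (edgeR adjusted p = 0.000769) and its relative Zfp36l1 fell by 0.19 (edgeR adjusted p = 0.000550). With dTAG-13 0 were called higher and 8 lower, both against control (median -0.38) and on doxycycline (median -0.31). Over all genes 30.0% were higher and 32.1% lower against control (median 0.02), and 30.7% and 33.4% on doxycycline (median 0.0032). Hnrnpd fell by 0.82 against control and Khsrp, another decay factor, fell by 0.63. On doxycycline Khsrp fell by 0.54 and Zfp36l1 fell by 0.49. With the correction Khsrp was at -0.42 and -0.30.

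Of 14 genes for chemokine processing, shedding and display, 13 were tested. With doxycycline 4 were called higher and 3 lower (median 0.01, against 14.8% higher and 18.7% lower over all genes), among them the metalloprotease Mmp14, which rose by 0.25, and the heparan sulphate polymerase Ext1, which fell by 0.25. With dTAG-13 1 was called higher and 9 lower against control (median -0.19), and 2 and 9 on doxycycline (median -0.21). All genes gave 30.0% higher and 32.1% lower against control, and 30.7% and 33.4% on doxycycline, at medians near 0. Ndst1, a heparan sulphate sulphotransferase, fell by 0.60 and by 0.49 in these comparisons, and by 0.28 and 0.11 with the length and GC correction. Ext1 fell by 0.48 against control, or by 0.28 with the correction. The protease Mmp2 fell by 0.54 on doxycycline. Between both compounds and dTAG-13, 2 were called higher and 3 lower (median -0.05, against 10.7% and 9.64% over all genes), with Rhbdf1, a regulator of Adam17, higher by 0.20 and Mmp2 lower at -0.19.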

How the data were processed

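RNA of 12 libraries, 3 technical repeats of 1 sample in each of 4 groups, was analysed. The authors deposited raw read counts per Entrez gene, and Subread is named as the aligner per the file headers. The submitters' processing notes name mm10, bcl2fastq 2.17 and featureCounts. Symbols came from RefSeq GRCm38.p6 (25275 genes) and GENCODE M21 (18), and 1886 had none.

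Library totals ranged from 22165538 to 32809573 counts. In R 4.3.3 with edgeR 4.0.16, filterByExpr left 12910 genes, TMM scaled the libraries, and 1 mean per group was fitted to all 12 with robust quasi-likelihood tests (two-sided, Benjamini-Hochberg over all tested genes, called at adjusted p under 0.05). CPM used TMM-scaled totals, and RPKM divided CPM by GENCODE transcript length. Limits for 0 reads are upper bounds of exact 95% Poisson intervals. Alternatives were other scalings, DESeq2 1.42.0, other filters, a replicate block, only the compared groups, each library left out, and a spline of length and GC (5 df each) per library, fitted to 11745 genes with a length. The test was tested on simulated data.

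The members and lists were chosen with earlier results of these data known. Named genes were the members, Adpgk, at most 2 called genes per list and comparison (the largest changes of at least 1 CPM), and the 2 patterns most like each member; Csf3 levels were added after its values were seen. Deviations from the group means correlated for libraries with one replicate number at -0.021 to 0.080 and for others at -0.061 to 0.066, so the numbers did not pair libraries. Repeats differed beyond sampling noise, with chi-square per degree of freedom from 2.38 to 8.38.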

Additional observations from a re-analysis of the deposited data

Results flagged for a closer look

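The dTAG-13 difference with doxycycline and without it differed for 2 chemokines by the interaction test. For Ccl2 the difference of log2 fold changes was 0.23 (edgeR adjusted p = 0.0114), from 0.12 without doxycycline to 0.35 with it. With the length and GC correction these were -0.34 and -0.20, and the interaction of 0.13 was not called (edgeR adjusted p = 0.163), nor was that with library size scaling alone (0.16). For Cxcl10 it was 0.22 (edgeR adjusted p = 0.000519), from 0.01 to 0.23; with the correction it was 0.14 (edgeR adjusted p = 0.0253), from -0.30 to -0.16. The median interaction of the shortest eighth of genes, in which both lie, was 0.13.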

How the results depend on the processing

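The 4 chemokines called higher in both doxycycline comparisons stayed called in every alternative run. The dTAG-13 results did not. Where 3 were called with dTAG-13 against control, library size scaling alone gave 5, all higher, adding Cxcl10 (0.10) and Ccl5 (0.18). It called 5256 of all 12910 genes higher there and 3115 lower. Leaving out 1 library gave 1 to 3, with 1 without control replicate 2. The length and GC correction gave 1 higher and 3 lower for dTAG-13 against control. It gave 0 higher and 3 lower for both compounds against doxycycline, and 4 higher and 1 lower for both against control. Over all 11745 genes it gave, in the same order, 2720 higher and 3860 lower, 2863 and 3374, and 2885 and 3966. The interaction count of 2 became 1 with library size scaling alone and with the correction, and ranged from 1 to 2 with 1 library left out, with 1 without doxycycline replicate 1. Values that turned with the correction were, for dTAG-13 against control, Cxcl10 -0.299, Ccl2 -0.335, Ccl5 -0.216 and Ccl7 -0.032. For both against doxycycline they were Cxcl10 -0.159, Ccl2 -0.203, Ccl5 -0.338 and Ccl25 -0.062. Others were Cxcl9 (-0.042) and Ccl5 (-0.251) for both against control, Ccl5 for both against dTAG-13 (-0.035), for doxycycline against dTAG-13 (0.303) and for the interaction (-0.122, and -0.033 with library size alone). The cause was not tested.

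With 1 library left out, signs also turned for uncalled values: Cxcl9 both against control (-0.149 to 0.322) and interaction (-0.296 to 0.235), Cxcl10 dTAG-13 against control (-0.0061 to 0.025), Ccl5 doxycycline against dTAG-13 (-0.035 to 0.0028) and interaction (-0.033 to 0.098). No paired libraries were found, and with the replicate block no chemokine call changed except Cxcl9 for doxycycline against dTAG-13, called at 0.656. Library size scaling alone moved the split of all called genes from 1917 higher and 2414 lower to 2546 and 1607 for doxycycline, from 3877 and 4144 to 5256 and 3115 for dTAG-13, where it moved the median of all genes from 0.02 to 0.11, from 1386 and 1244 to 926 and 2132 for both against dTAG-13, and from 1705 and 1245 to 818 and 2424 for the interaction. The correction gave 1939 and 868 for the interaction; among called genes the higher share for doxycycline was 44.3% as reported and 34.2% with the correction. Depth limits Cxcl9, Cxcl16, Cx3cl1 and Cxcl5.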
